A study of Mus musculus with 4 samples.

Results

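The genes described here encode interferon beta and the proteins that sense foreign or misplaced nucleic acid in the cytosol and switch the interferon gene on. They were chosen by symbol: the cytokine gene Ifnb1, the RNA sensors Ddx58 (RIG-I) and Ifih1 (MDA5), the DNA sensor Mb21d1 (cGAS), the adaptors Mavs and Tmem173 (STING), the kinases Tbk1 and Ikbke, and the transcription factors Irf3 and Irf7. All 10 were found among the 55335 gene rows of the deposited table, and all 10 passed the filter on low values. RNA-seq was available for 4 libraries of CT26, a colon carcinoma line of the mouse grown in culture. Values are FPKM, the fragments of a gene scaled to its length and to the library's total.

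The libraries CT26_102_R and CT26_CTL_R are labelled with the genotype FOSL2-KO and the treatment chemoradiotherapy, and CT26_102 and CT26_CTL are labelled FOSL2-WT with PBS, so genotype and treatment cannot be told apart. The titles add a stem, CT26_102 or CT26_CTL, which the labels do not explain, and the suffix R coincides with the label FOSL2-KO. Each combination of stem and suffix is 1 library, nothing in the labels says that libraries came from separate cultures or clones, and no treatment time or dose is labelled. Fosl2 transcript was present throughout, at 16.0 FPKM in CT26_102_R against 9.35 in CT26_102 and at 19.2 in CT26_CTL_R against 12.7 in CT26_CTL, and was thus higher, not lower, in each library labelled FOSL2-KO. It was lower in stem CT26_102 than in stem CT26_CTL in both pairs. The design text speaks of KD cells, and which libraries had lost FOSL2 cannot be told from the labels and these values, so directions below belong to the labels. Estimated depth lay between 21.61 and 26.37 M reads (M for mega). Of the epithelial markers, Epcam was listed at 0 in every library and Cdh1 at no more than 0.0202 FPKM, while the mesenchymal filament gene Vim was between 503 and 782 FPKM. The keratin gene Krt8 was at 2.74 and 3.82 FPKM in stem CT26_102 against 0.652 and 0.461 in stem CT26_CTL, and Krt18 at 39.6 and 34.7 FPKM in stem CT26_102 against 76.5 and 42.5 in stem CT26_CTL. Lgals1 was at 2530 and 2970 FPKM in stem CT26_102 against 5330 and 5450 in stem CT26_CTL. Of 12 leukocyte markers, 11 stayed under 1 FPKM in every library, with Cd3e, Siglech and Klrb1c at 0. The exception was the macrophage receptor gene Csf1r, with at most 2.0 FPKM.

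In the textbook pathway, RIG-I and MDA5 bind viral or displaced double-stranded RNA and signal through MAVS on the mitochondrial surface, whereas cGAS binds cytosolic DNA and makes a cyclic dinucleotide that activates STING on the endoplasmic reticulum. Both routes meet at the kinases TBK1 and IKK epsilon, which phosphorylate IRF3 and IRF7. These factors, with NF-kB and an AP-1 type dimer, assemble on a short enhancer just upstream of Ifnb1. Secreted interferon beta acts on neighbouring cells and raises the transcripts of many antiviral genes, Irf7 and Ifih1 among them. The sensors, adaptors and kinases act through binding and modification of protein already present.

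The stretch before the start of Ifnb1 is shown because that gene had the largest difference among the 10, and those of Irf7 and Ikbke because they had the next largest differences between the labelled groups. The 160 bases upstream of the gene start (RefSeq or GENCODE, whichever lies further upstream) are given 5′ to 3′ on the gene's own strand, from RefSeq promoters on GRCm38.p6. Capitals mark matches, on either strand, to the core of an interferon regulatory factor site (AANNGAAA) or to an NF-kB type site (GGG and TTCC separated by 3 bases).
Ifnb1 (chr4:88522795-88522954, minus strand): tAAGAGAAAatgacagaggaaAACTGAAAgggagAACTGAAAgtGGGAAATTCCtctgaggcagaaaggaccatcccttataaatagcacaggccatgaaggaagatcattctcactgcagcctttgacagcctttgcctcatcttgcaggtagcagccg
Irf7 (chr7:141266482-141266641, minus strand): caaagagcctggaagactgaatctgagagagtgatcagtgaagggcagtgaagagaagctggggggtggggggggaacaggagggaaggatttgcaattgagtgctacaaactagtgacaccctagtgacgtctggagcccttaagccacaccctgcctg
Ikbke (chr1:131279607-131279766, minus strand): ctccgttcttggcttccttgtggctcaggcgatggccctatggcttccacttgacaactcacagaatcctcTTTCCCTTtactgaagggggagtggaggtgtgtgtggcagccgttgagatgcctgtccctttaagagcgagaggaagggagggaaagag

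Promoter entries of 300 bases (250 before and 50 after the RefSeq start) were found for 9 of the 10 genes. The Ifnb1 entry held 3 matches to AANNGAAA, starting 159, 139 and 126 bases before the start, and 1 match to the NF-kB type site, starting 116 bases before it, so that the 4 lie side by side without overlap. Of 32851 promoter entries of the same length, 23.9% held AANNGAAA and 5.56% held the NF-kB type site, both strands searched. The Irf7 entry held neither, and the Ikbke entry held 1 match to AANNGAAA and, starting 6 bases before the start, 1 match to the AP-1 type site TGANTCA, outside the stretch printed, which 7.81% of entries held. The longer interferon response motif, GAAA repeated after a gap of 2 bases, contains AANNGAAA and was present in 3.44% of entries. It was matched once in Ddx58 and once in Ifih1, in both after the RefSeq start, and not in Ifnb1. The Mb21d1 entry held 1 NF-kB type match, and those of Irf3, Mavs and Tbk1 held none of the motifs. AANNGAAA was added to the search after the Ifnb1 sequence had been seen, and a match is a description of letters, not of a bound site.

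Ifnb1 (ENSMUSG00000048806, GRCm38 chromosome 4, 88522025 to 88522774, minus strand, a single exon) was under 1 FPKM in both libraries without the suffix and above 5 FPKM in both with it. It was at 5.17 FPKM in CT26_102_R against 0.0543 FPKM in CT26_102, and at 26.4 FPKM in CT26_CTL_R against 0.458 FPKM in CT26_CTL. Both libraries labelled FOSL2-KO with chemoradiotherapy were thus above both labelled FOSL2-WT with PBS. A gene that the filter kept only through the libraries with suffix R could not overlap, so this order is a description only. In bulk RNA, more cells making a transcript and more transcript per cell cannot be told apart. Converted with the exonic length of 750 bases and the value of 1 read in each library, these levels correspond to about 93.6 reads in CT26_102_R, 0.881 in CT26_102, 429 in CT26_CTL_R and 9.07 in CT26_CTL. The FPKM ratio of CT26_102_R over CT26_102 was 95.1, with a counting interval (95%, exact, on rounded read equivalents) from 14.7 to 3360. That of CT26_CTL_R over CT26_CTL was 57.7, with an interval from 30.4 to 128. The intervals cover counting error only and overlap widely. Ifnb1 stood at percentile 39.9 of the tested genes in CT26_102_R and 82.6 in CT26_CTL_R, against 0.293 in CT26_102 and 2.21 in CT26_CTL. The summed leukocyte markers were at 3.03 FPKM in CT26_102_R against 1.90 in CT26_102, and at 0.47 in CT26_CTL_R against 1.35 in CT26_CTL. They were thus higher with the suffix in stem CT26_102 and lower with it in stem CT26_CTL, and their part in the result was not tested.

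Genes were tested where FPKM was at least 1 in at least 2 libraries, and Ifnb1 met this only through the libraries with suffix R. It could not have been tested without being higher there, so its fitted value is a description and not a call. In a limma fit of log2(FPKM + 1) with terms for both the suffix and the stem, the difference of Ifnb1 was 3.39 ± 0.401 (SE, n = 2 libraries per group), with an adjusted p of 0.0209 by limma and of 0.157 with no filter. The pseudocount of 1 compresses this gene: the log2 difference was 2.55 within stem CT26_102 and 4.23 within stem CT26_CTL, the reverse of the order of the FPKM ratios. With a pseudocount of 0.1 the difference was 5.33 (adjusted p = 0.0128). Adjusted p ranged from 0.0128 to 0.427 over the alternatives, the highest in the fit without the stem.

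**Figure D1:**
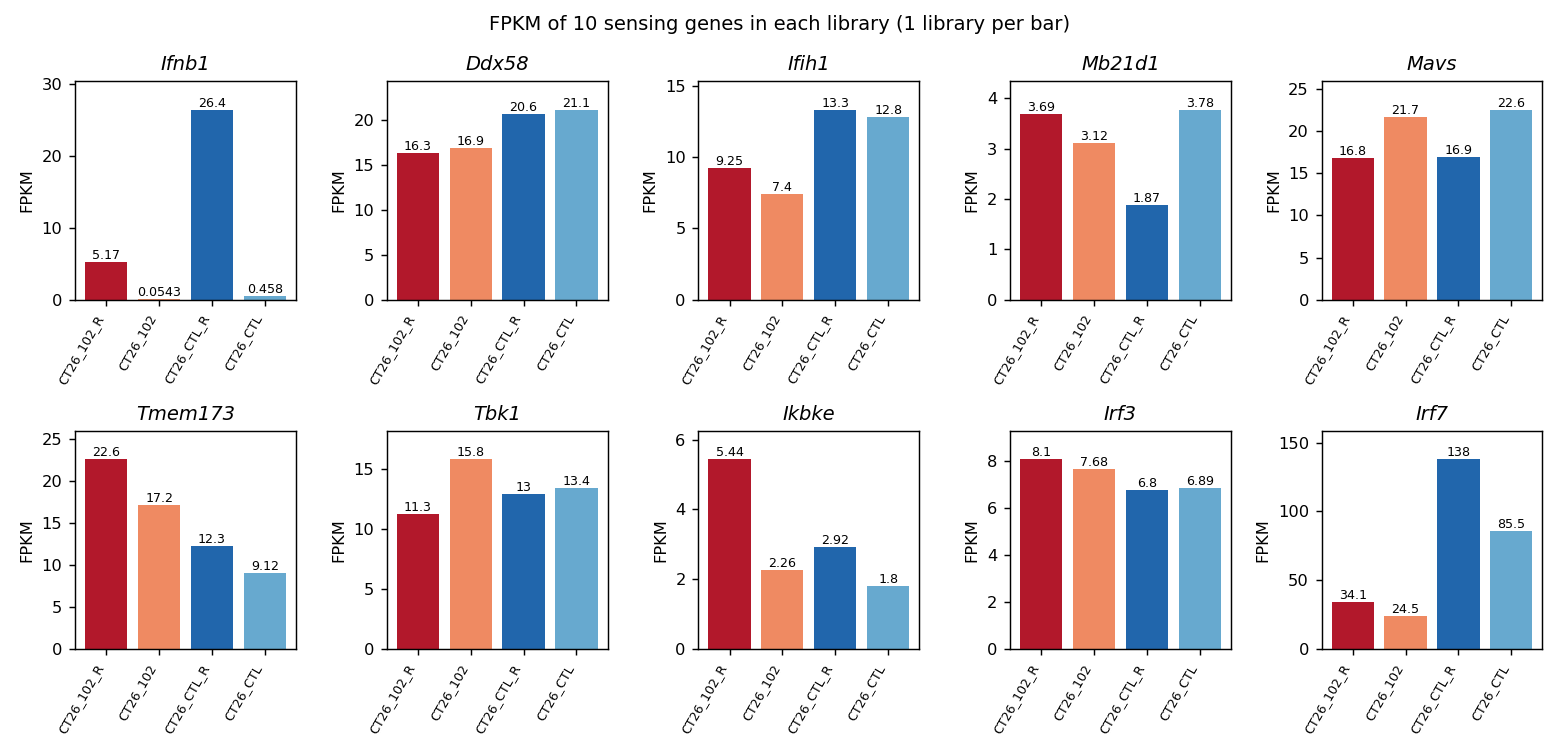
Bars give FPKM of each gene in each of the 4 libraries (1 library per bar, no error bars, each panel with its own axis from 0); red shades are title stem CT26_102, blue shades title stem CT26_CTL, and the darker shade is suffix R. Ifnb1 is visible in the darker bars (5.17 and 26.4 FPKM), Irf7 is lower in the red bars (34.1 and 24.5 FPKM) than in the blue bars (138 and 85.5 FPKM). Ikbke runs from 1.80 to 5.44 FPKM and Tmem173 from 9.12 to 22.6 FPKM.

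Of the 9 genes other than Ifnb1, 1 rose (Irf7), 0 fell and 8 did not pass between the labelled groups. Of these 9, 4 had an unadjusted p under 0.05 by limma, as had 4315 of all 11955 tested genes. Of all 11955 tested genes, 12.9% passed in this comparison, 905 of them higher (7.57%) and 636 lower (5.32%), so a count of 1 in 9 is near the background. With upper-quartile rescaling the split over all genes was 937 higher and 1011 lower. The median log2 difference of the 9 genes was 0.03, and that of all tested genes 0.00. In the fit without the stem 0 of the 10 genes passed by limma, with 1 at an unadjusted p under 0.05 (Ifnb1). Over all 11955 tested genes, 0.00836% passed and 1281 had an unadjusted p under 0.05.

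Neither RNA sensor passed between the labelled groups. Ddx58 (RIG-I, ENSMUSG00000040296, chromosome 4, 40203773 to 40239828) was at 16.3 FPKM in CT26_102_R against 16.9 in CT26_102, and at 20.6 in CT26_CTL_R against 21.1 in CT26_CTL. The log2 difference was -0.04 with a 95% interval from -0.36 to 0.28 (adjusted p = 0.839 by limma). Ifih1 (MDA5, ENSMUSG00000026896, chromosome 2, 62595798 to 62646255) was at 9.25 FPKM in CT26_102_R against 7.40 in CT26_102, and at 13.3 in CT26_CTL_R against 12.8 in CT26_CTL. It was higher with suffix R in both pairs, by ratios of 1.25 and 1.04, but the groups overlapped and the log2 difference of 0.17 (interval -0.18 to 0.53) did not pass (adjusted p = 0.411 by limma).

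The DNA sensor and its adaptor had different patterns. Mb21d1 (cGAS, ENSMUSG00000032344, chromosome 9, 78430526 to 78443237) was at 3.69 FPKM in CT26_102_R against 3.12 in CT26_102, and at 1.87 in CT26_CTL_R against 3.78 in CT26_CTL. Suffix R thus went with a ratio of 1.18 in stem CT26_102 and 0.495 in stem CT26_CTL, opposite directions, each from a single pair of libraries. Tmem173 (STING, ENSMUSG00000024349, chromosome 18, 35733679 to 35740554) was at 22.6 FPKM in CT26_102_R against 17.2 in CT26_102, and at 12.3 in CT26_CTL_R against 9.12 in CT26_CTL. Its ratios were alike, 1.31 and 1.35, and the log2 difference of 0.38 (interval 0.06 to 0.71) had an adjusted p of 0.0992 by limma. Mavs (ENSMUSG00000037523, chromosome 2, 131234063 to 131248025), the adaptor of the RNA sensors, was lower in both libraries with suffix R than in either without it. It was at 16.8 FPKM in CT26_102_R against 21.7 in CT26_102, and at 16.9 in CT26_CTL_R against 22.6 in CT26_CTL, a log2 difference of -0.37 (interval -0.69 to -0.06) that did not pass (adjusted p = 0.102 by limma).

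The proportion of Tbk1 to Ikbke was lower with suffix R within each stem, and alike in the libraries without it. Tbk1 (ENSMUSG00000020115, chromosome 10, 121546455 to 121586787), the broadly expressed kinase of this step, was at 11.3 FPKM in CT26_102_R against 15.8 in CT26_102, and at 13.0 in CT26_CTL_R against 13.4 in CT26_CTL. Its log2 difference was -0.25 (interval -0.65 to 0.15, adjusted p = 0.298 by limma). Ikbke (IKK epsilon, ENSMUSG00000042349, chromosome 1, 131254343 to 131279606), the inducible relative of Tbk1, was at 5.44 FPKM in CT26_102_R against 2.26 in CT26_102, and at 2.93 in CT26_CTL_R against 1.80 in CT26_CTL. Both values with suffix R were above both values without it, a log2 difference of 0.73 ± 0.178 (SE, n = 2 per group, interval 0.28 to 1.19) whose adjusted p of 0.0573 by limma was just above the threshold. The FPKM of Tbk1 was 2.07 times that of Ikbke in CT26_102_R against 7.0 times in CT26_102, and 4.43 times in CT26_CTL_R against 7.45 times in CT26_CTL.

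The transcription factors separated. Irf3 (ENSMUSG00000003184, chromosome 7, 44997648 to 45002848), which is made constitutively, had the smallest difference of the 10 genes between the labelled groups, at 8.09 FPKM in CT26_102_R against 7.68 in CT26_102, and at 6.80 in CT26_CTL_R against 6.89 in CT26_CTL. The log2 difference of 0.03 (interval -0.31 to 0.36, adjusted p = 0.905 by limma) turned to -0.029 with upper-quartile rescaling. Irf7 (ENSMUSG00000025498, chromosome 7, 141262706 to 141266481), itself an interferon-induced gene, was at 34.1 FPKM in CT26_102_R against 24.5 in CT26_102, and at 138 in CT26_CTL_R against 85.5 in CT26_CTL. Within each stem it was higher with the suffix, by ratios of 1.39 and 1.61, while the labelled groups overlapped since the stems lay further apart. It rose by 0.57 ± 0.122 on the log2 scale (SE, n = 2 per group, adjusted p = 0.0470 by limma). This call was lost under each of 6 alternatives that give a test, with adjusted p from 0.0508 with a pseudocount of 0.1 to 0.842 without the stem in the fit. Irf7 was the most abundant of the 10 in all 4 libraries, and its FPKM was 4.21 times that of Irf3 in CT26_102_R, 3.19 times in CT26_102, 20.3 times in CT26_CTL_R and 12.4 times in CT26_CTL.

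**Figure D2:**
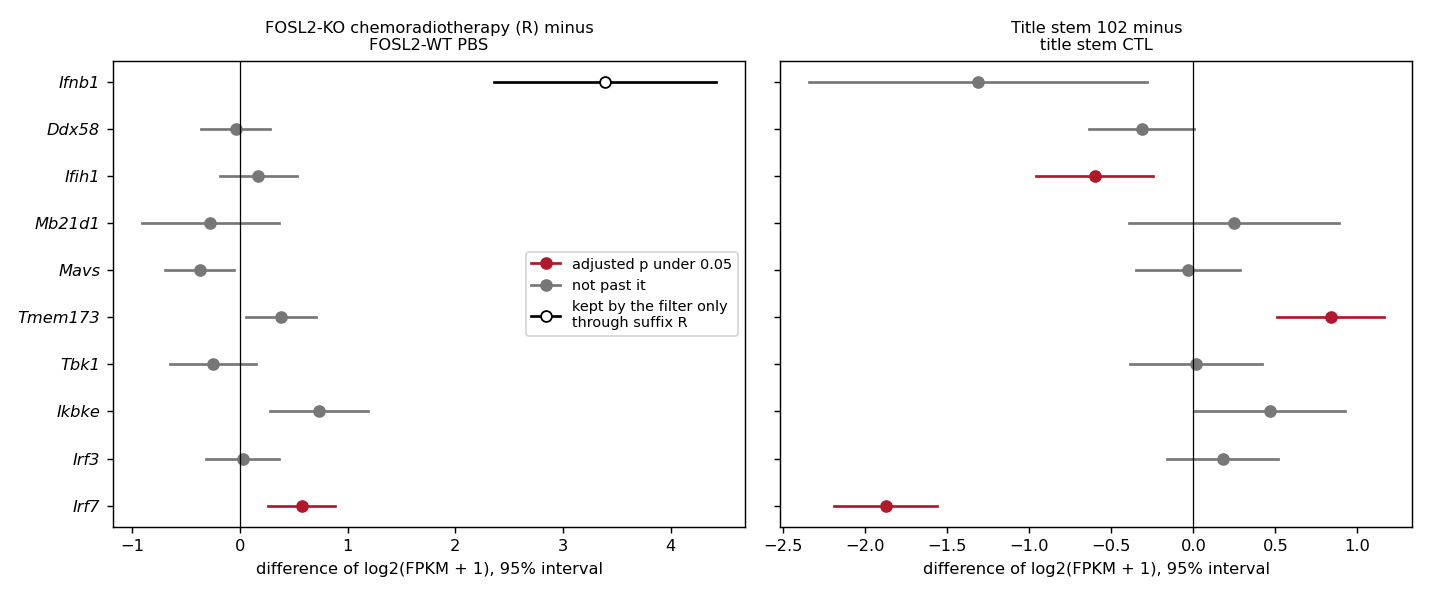
Points are log2(FPKM + 1) differences from the fit with both terms and lines their 95% intervals (n = 2 libraries per side); the left panel is FOSL2-KO with chemoradiotherapy minus FOSL2-WT with PBS and the right panel stem CT26_102 minus stem CT26_CTL. Ifnb1 (3.39) on the left is drawn open because the filter kept it only through suffix R, and red marks an adjusted p under 0.05: Irf7 (0.57) on the left, and Ifih1 (-0.60), Tmem173 (0.84) and Irf7 (-1.87) on the right.

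Several of these genes overlap others: Irf3 with Bcl2l12, Irf7 with Phrf1, Mb21d1 with the pseudogene Gm8093 and Ikbke with the antisense transcripts Gm28913 and Gm28914, each on the opposite strand. Whether the libraries kept strand is not given in the sources used here, so reads from the shared stretches cannot be assigned with certainty. Ifnb1, Ddx58, Ifih1, Mavs, Tbk1 and Tmem173 overlap no other annotated gene.

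Between the title stems Irf7 and Ifih1 were lower and Tmem173 was higher in stem CT26_102. Irf7 was at 34.1 FPKM in CT26_102_R against 138 in CT26_CTL_R, and at 24.5 in CT26_102 against 85.5 in CT26_CTL, so each library of stem CT26_102 was below each of stem CT26_CTL. On the log2 scale stem CT26_102 minus stem CT26_CTL was -1.87 ± 0.122 (SE, 2 libraries a stem, adjusted p = 0.00430 by limma), with adjusted p over the alternatives from 0.00271 to 0.123. Ifih1 was likewise lower in stem CT26_102, at 9.25 FPKM in CT26_102_R against 13.3 in CT26_CTL_R and at 7.40 in CT26_102 against 12.8 in CT26_CTL (log2 difference -0.60 ± 0.138, adjusted p = 0.0412 by limma, 0.0315 to 0.271 over the alternatives). Tmem173 went the other way, at 22.6 FPKM in CT26_102_R against 12.3 in CT26_CTL_R and at 17.2 in CT26_102 against 9.12 in CT26_CTL. It was higher by 0.84 ± 0.126 on the log2 scale (SE, 2 libraries a stem, adjusted p = 0.0179 by limma, 0.0137 to 0.243 over the alternatives). As for Irf7, the libraries of the stems did not overlap for Ifih1 and Tmem173, nor for Ddx58 and Irf3, which did not pass. The share of all tested genes without such overlap was not counted, so this is a description only.

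Ifnb1 had 0.195 times the FPKM of CT26_CTL_R in CT26_102_R (counting interval 0.155 to 0.246) and 0.118 times the FPKM of CT26_CTL in CT26_102 (interval 0.00309 to 0.978, from about 1 read against 9). With a pseudocount of 1 the log2 value of -1.31 ± 0.401 (SE, 2 libraries a stem) did not pass (adjusted p = 0.0745 by limma). It was -2.15 between the libraries with suffix R and -0.47 between those without it. With a pseudocount of 0.1 it was -2.09 and passed (adjusted p = 0.0138, with 0.0138 to 0.715 over all alternatives). The libraries of the stems overlap, since CT26_102_R lies above CT26_CTL.

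For the other 6 genes no stem difference passed. Ddx58 had a log2 difference of -0.31 (interval -0.63 to 0.01), Ikbke of 0.47 (interval 0.01 to 0.92) and Irf3 of 0.18 (interval -0.16 to 0.52). Mavs was within -0.35 and 0.29, and Tbk1 within -0.38 and 0.42, with a difference of 0.02 that turned to -0.042 with median-of-ratios rescaling. Mb21d1 had the widest interval of these 6, from -0.39 to 0.89. In all, 1 of the 10 genes was higher and 2 were lower in stem CT26_102, against 21.9% of all tested genes past the threshold in that comparison (1494 higher, 12.5%, and 1129 lower, 9.44%, or 1190 higher and 1312 lower with median-of-ratios rescaling). Without the suffix in the fit 0 of the 10 passed by limma and 3 had an unadjusted p under 0.05. Over all 11955 tested genes, 0.284% passed (0.234% higher and 0.0502% lower) and 2000 had an unadjusted p under 0.05.

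**Figure D3:**
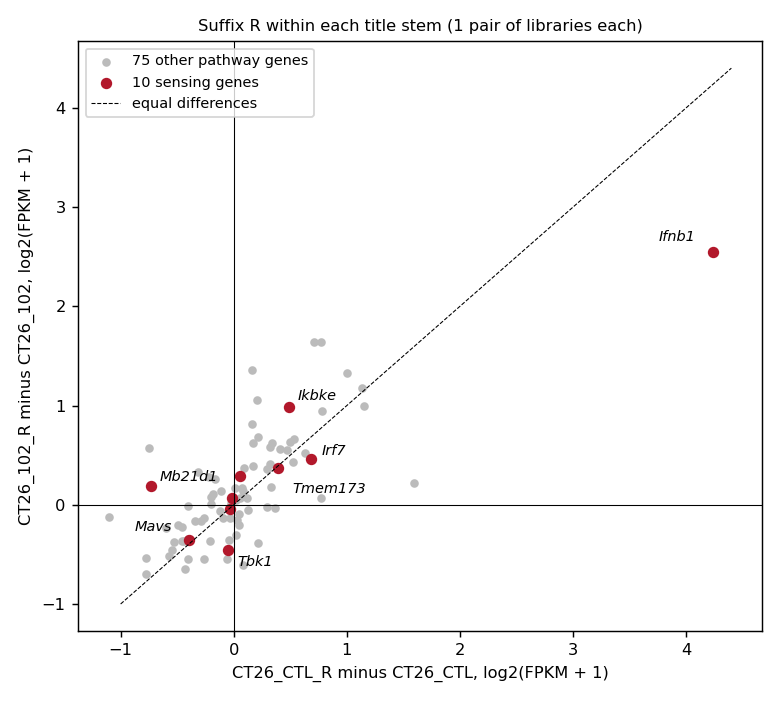
Each point is a gene, placed by its difference in log2(FPKM + 1) between suffix R and no suffix in stem CT26_CTL (horizontal) and in stem CT26_102 (vertical), 1 pair of libraries each; red points are the 10 genes, grey points 75 other genes of the pathway, and the dashed line marks equal differences. Ifnb1 lies far from all others at 4.23 and 2.55, and Mb21d1 is at -0.73 and 0.19.

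A wider list of 101 genes of the same pathway, none of them among the 10, placed these values in context. All were in the table and 75 passed the filter. Between the labelled groups 8 rose, 1 fell and 66 did not pass, so 12% of the 75 passed, against 12.9% of all tested genes (8 higher and 5 lower with upper-quartile rescaling). The median log2 difference was 0.01, and 33 had an unadjusted p under 0.05 by limma, as had 4315 of all 11955 tested genes. Between stems 2 were higher and 11 lower in stem CT26_102 and 62 did not pass, so 17.3% passed, against 21.9% of all tested genes, with a median of 0.01 beside 0.05 for all tested genes. With limma in the fits with 1 term, 0 passed in either comparison, and 5 and 12 had an unadjusted p under 0.05. Over all 11955 tested genes the latter counts were 1281 and 2000.

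Of 18 other sensors tested, 4 rose and 1 fell between the labelled groups, against 12.9% of all tested genes past the threshold, and whether sensors differ from other genes was not tested. Zbp1, a sensor of Z-form nucleic acid that can start necroptosis, was at 14.3 FPKM in CT26_102_R against 6.69 in CT26_102, and at 56.2 in CT26_CTL_R against 24.7 in CT26_CTL (log2 difference 1.07 ± 0.129, SE, n = 2 per group, adjusted p = 0.0216 by limma). Aim2, an inflammasome sensor of cytosolic DNA, was at 21.6 FPKM in CT26_102_R against 6.24 in CT26_102 and at 28.5 in CT26_CTL_R against 17.0 in CT26_CTL (adjusted p = 0.0450 by limma). Oas1a, which encodes an oligoadenylate synthetase activated by double-stranded RNA, and Oasl1, which encodes an oligoadenylate synthetase-like protein, also rose, with log2 differences of 0.57 and 0.57. The RNA helicase gene Ddx3x fell, at 32.2 FPKM in CT26_102_R against 53.0 in CT26_102 and at 29.6 in CT26_CTL_R against 51.5 in CT26_CTL (-0.74, adjusted p = 0.0311 by limma).

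Among adaptors, ubiquitin ligases and inhibitors 1 of 24 tested genes rose (4.17%) and 0 fell, against 12.9% of all tested genes past the threshold. Myd88, the adaptor of most Toll-like receptors, was at 36.1 FPKM in CT26_102_R against 13.8 in CT26_102, and at 24.5 in CT26_CTL_R against 11.7 in CT26_CTL (1.16 ± 0.143, SE, n = 2 per group, adjusted p = 0.0220 by limma). Trim25, a ubiquitin ligase of the RIG-I route, was at 31.6 FPKM in CT26_102_R against 11.7 in CT26_102 but at 42.8 in CT26_CTL_R against 38.1 in CT26_CTL, a log2 difference of 0.76 that did not pass (adjusted p = 0.134 by limma). Of 11 nucleases and RNA-editing genes 0 passed by limma in either comparison. Among them, 2 had an unadjusted p under 0.05 between the labelled groups and 3 between stems. Over all 11955 tested genes these counts were 4315 and 4830. Trex1, the cytosolic DNA exonuclease, was at 10.6 FPKM in CT26_CTL_R against 2.84 in CT26_CTL but at 3.04 in CT26_102_R against 2.46 in CT26_102.

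Of 7 genes for partners of the Ifnb1 enhancer, 2 rose between the labelled groups (28.6%), against 12.9% of all tested genes past the threshold. Whether these partners differ from other genes was not tested. In the fit without the stem these 2, Rela and Jun, did not pass (adjusted p = 0.433 and 0.413 by limma). Rela, the NF-kB subunit p65, was at 51.8 FPKM in CT26_102_R against 15.9 in CT26_102, and at 40.7 in CT26_CTL_R against 23.5 in CT26_CTL (1.21 ± 0.230, SE, n = 2 per group, adjusted p = 0.0408 by limma). Jun, an AP-1 subunit, was at 70.1 FPKM in CT26_102_R against 30.5 in CT26_102 and at 87.5 in CT26_CTL_R against 39.2 in CT26_CTL (1.16, adjusted p = 0.0179 by limma). The others (Atf2, Nfkb1, Hmga1, Crebbp and Ep300) had log2 differences from -0.38 to 0.04 and did not pass. Of 6 other interferon regulatory factor genes and cofactors tested, 0 passed by limma in either comparison. Irf1 was at 6.05 FPKM in CT26_102_R against 6.69 in CT26_102 and at 6.05 in CT26_CTL_R against 14.1 in CT26_CTL (-0.61, adjusted p = 0.155 by limma).

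In the receptor arm, Isg15, a ubiquitin-like interferon-induced protein, was the single gene of 9 that rose, at 261 FPKM in CT26_102_R against 135 in CT26_102 and at 686 in CT26_CTL_R against 399 in CT26_CTL (0.86, adjusted p = 0.0198 by limma). The share past the threshold was thus 11.1% of the 9, near the 12.9% of all tested genes. The next largest differences were those of the feedback inhibitor genes Socs3 (-0.41) and Socs1 (-0.40), which did not pass. Between stems Isg15 was lower in stem CT26_102 (log2 difference -1.47). Further genes lower there were Zbp1 (-1.82), Oasl1 (-1.60), Oas1a (-1.03), the DNA-binding Ifi200-family genes Mndal (-1.04), Ifi203 (-1.02) and Ifi204 (-0.88), the ISG15 protease gene Usp18 (-1.14), the NLR-family gene Nlrc3 (-0.65) and the ubiquitin ligase gene Trim56 (-0.63). The Ifi200 genes and Oas1a have close paralogs whose reads the counting could split, so their values are uncertain. The RNA helicase gene Dhx9 (0.91) and the acetyltransferase gene Crebbp (0.68) were higher in stem CT26_102. Adjusted p of these stem differences was between 0.0042 and 0.0378 by limma.

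**Figure D4:**
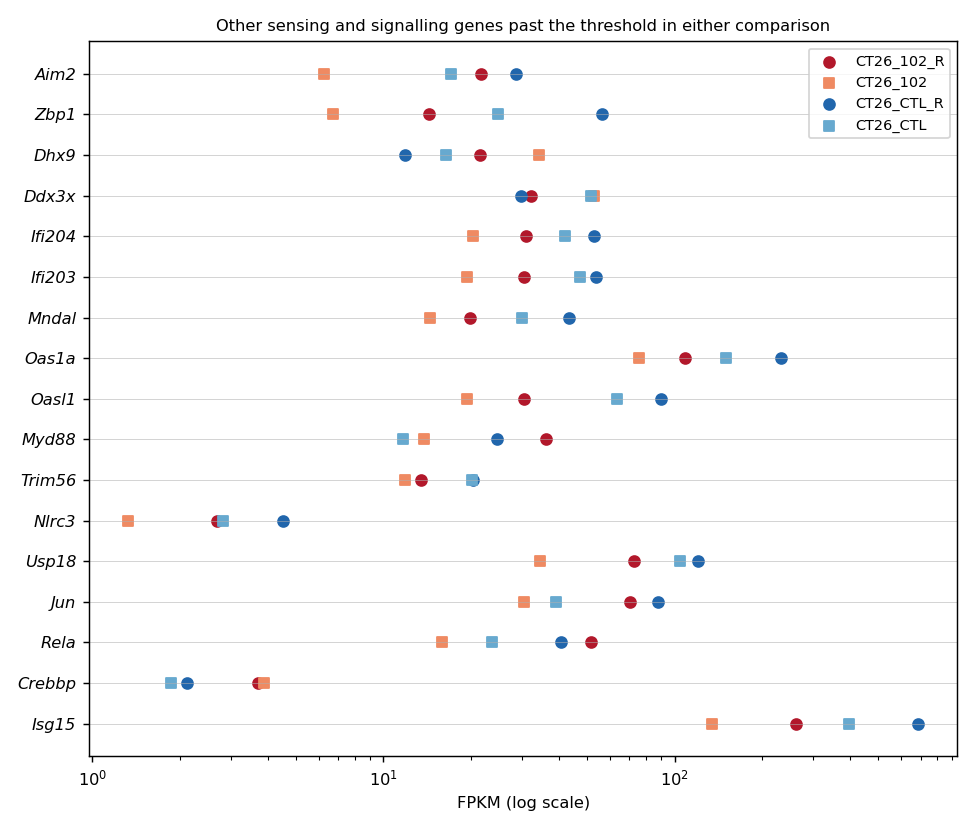
FPKM on a log axis of 17 other pathway genes past the threshold in either comparison; circles are libraries with suffix R and squares libraries without it, red shades stem CT26_102 and blue shades stem CT26_CTL. Isg15 runs from 135 to 686 FPKM and its blue symbols lie to the right of its red ones, while for Myd88 and Rela the circles lie to the right of the squares.

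Other interferon genes were hardly detected. Of 18 genes for other type I, type II and type III interferons, 13 were listed at 0 in all 4 libraries and the highest value was 0.654 FPKM. That value was of Ifna4 in CT26_CTL_R, which with 0.194 FPKM in CT26_102_R corresponds to about 7.9 and 2.6 reads, and Ifna4 was listed at 0 in CT26_CTL and CT26_102. The Ifna genes are near-identical copies, so the assignment of these few reads to Ifna4 is uncertain, and no ratio is given. Ifng was at 0 in all 4 libraries.

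The genes most like Ifnb1 over the 4 libraries were found by the distance between centred log2(FPKM + 1) profiles among all tested genes. The nearest were Ccl4, a chemokine (distance 1.13), Snora9, a small nucleolar RNA (1.21), Maff, a small Maf factor (1.27), Csf2, the growth factor GM-CSF (1.40), and Gm44386 (1.62). Ccl4 was at 3.60 FPKM in CT26_102_R against 0.770 in CT26_102, and at 17.9 in CT26_CTL_R against 1.11 in CT26_CTL. For Irf7 the nearest gene was much closer, Apol9a at a distance of 0.02 with 35.4 FPKM in CT26_102_R, 25.5 in CT26_102, 143 in CT26_CTL_R and 90.3 in CT26_CTL. Plekho1 (0.22), Akr1c18 (0.22), Slurp1 (0.31) and Pbp2 (0.32) followed. Apol9a has a close paralog, so its level is uncertain. Like Ifnb1, Snora9 and Gm44386 passed the filter only through the libraries with suffix R, and Slurp1 and Pbp2 only through stem CT26_CTL. The filter thus had a part in which genes could be near. With 4 libraries such likeness is a description over 4 values.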

How the data were processed

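Per the labels' protocols, total RNA was purified with an RNeasy kit and libraries were made with a SMARTer mRNA-seq kit. The authors deposited FPKM per gene and library; neither the aligner and quantifier nor whether strand was kept is given in the sources used here. GRCm38 and mm10, synonyms of 1 build, are listed by the submitters' processing notes. Positions and exonic lengths came from GENCODE M21 on GRCm38. The 11955 genes that reached an FPKM of 1 in 2 or more libraries were analysed as log2(FPKM + 1) with limma 3.58.1 in R 4.3.3 (lmFit, eBayes with a trend). The fit held the title stem and the labelled group (suffix R) as terms, with 1 residual degree of freedom and 4.01 prior degrees of freedom. The script was tested on simulated data. P-values were two-sided, adjusted by Benjamini-Hochberg over these genes and called below 0.05. With 2 libraries per side an exact permutation test cannot go below p = 0.333, so none was run. For the same reason the lack of overlap between the labelled groups for Mavs and Ikbke is a description only. Under random labels it has the same probability of 0.333, and its share over all tested genes was not counted. For Ifnb1 the lack of overlap was fixed by the filter. The 1 residual degree of freedom of this fit is the stem and suffix interaction, which limma pools with the spread of other genes. Its p-values and SE thus do not measure spread among replicate cultures. Separate cultures are not labelled, so differences among these libraries may also be technical. The words rose and fell refer to this fit, and ± values are its SE.

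Stems pair the libraries by title: deviations from the group means in same-stem libraries had a correlation of 0.723 across 11955 genes. Fits with 1 term (no replicate block), a pseudocount of 0.1, no filter, upper-quartile and median-of-ratios rescaling, no trend and leaving out each library were the alternatives.

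The value of 1 read was estimated from single-transcript genes between 600 and 3000 bases. It was the most frequent product of FPKM and length within a fixed window of low products. That window limited what the estimate, and with it the depth and the read numbers, could come to. Between 35.33% and 37.13% of the products below 5 reads were whole within 0.02 reads, so read numbers are approximate. Beyond the exact binomial intervals of Ifnb1, which rest on these rounded numbers, no count test was run. The members, lists, tests and the rule for named genes (all 10 genes, pathway genes past the threshold or with the largest differences of their role, and the 5 nearest patterns) were chosen with earlier results of these data known. Of the pathway genes past the threshold, 1 is counted but not reported here.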

Additional observations from a re-analysis of the deposited data

Results flagged for a closer look

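Mb21d1, the cGAS gene, differed with suffix R by 0.19 on the log2 scale within stem CT26_102 and by -0.73 within stem CT26_CTL, opposite directions in the stems. Equivalently, stem CT26_102 minus stem CT26_CTL was 0.71 with the suffix and -0.21 without it. Tbk1 likewise had a stem difference of -0.18 with suffix R and of 0.22 without it. Irf3 differed with suffix R by 0.07 within stem CT26_102 and by -0.02 within stem CT26_CTL. Each of these differences comes from a single pair of libraries. A fit that held the stem and suffix interaction as a term would leave no residual degree of freedom, so none of the differences in direction was tested.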

How the results depend on the processing

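The calls rest on the fit with both terms and on the filter. Without the filter, limma called 0 genes in both comparisons (4937 at an unadjusted p under 0.05 for suffix R and 5802 for the stem), hence 0 of the 10 genes (5 and 4 unadjusted) and 0 of the pathway list (22 and 27 unadjusted). With no replicate block, so that stem and suffix were fitted apart, 1 gene passed for suffix R and 34 for the stem. These included 0 of the 10 genes (1 and 3 at an unadjusted p under 0.05) and 0 of the pathway list. Over all 11955 tested genes, 1281 and 2000 had an unadjusted p under 0.05. Leaving out 1 library in those fits, where the lone sample of its group is assumed to vary like the others, gave 6 genes for suffix R without CT26_102, 3 without CT26_102_R, 11 without CT26_CTL and 2 without CT26_CTL_R. For the stem it gave 4, 16, 7 and 0 genes in the same order (951 at an unadjusted p under 0.05 where 0), and 0 of the 10 genes each time (1 to 2 unadjusted for suffix R, 1 to 3 for the stem). Between the labelled groups Irf7 missed the threshold with a pseudocount of 0.1, with upper-quartile or median-of-ratios rescaling and with no trend. Of the 10 genes, Ifnb1 alone then had an adjusted p under 0.05 by limma. That is a description and not a call, since the filter kept Ifnb1 only through suffix R. Of all 11955 tested genes, 1299, 1948, 1387 and 1109 passed in these settings, in the same order. The difference of Irf3 for suffix R turned to -0.029 with upper-quartile rescaling and that of Tbk1 for the stem to -0.042 with median-of-ratios rescaling; the cause was not tested. With both terms a left-out library leaves no test, and the difference is that of the complete pair, 2.55 to 4.23 for Ifnb1 with suffix R. About 1 read in CT26_102 limits every ratio of Ifnb1 that uses that library.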
